A study of Rattus norvegicus with 9 samples.

Results

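The proteasome is the protease that degrades ubiquitin-tagged proteins, and the genes described here are those whose probe sets on the rat array carry a symbol beginning with Psma, Psmb, Psmc, Psmd or Psme, with the immune subunits Psmb8 and Psmb9 set apart. The rule chose genes by name, with no difference between groups in it, and used the mean signal over all 9 arrays only to pick a probe set where a gene had several. It gave 39 genes of the 14217 that have a probe set naming 1 gene, measured by 53 of the 31042 probe sets that are not array controls. Each gene is represented by its brightest probe set in that mean, and all 39 of these passed the filter on dim probe sets. Of the 39 genes, 37 encode subunits, base assembly chaperones or activators, and 2, Psmc3ip and Psme3ip1, are named after a partner gene and encode no subunit.

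Liver RNA of Wistar rats labelled male, weighing 180 to 220 g, was hybridised to 9 Affymetrix arrays, 1 rat per array. There were 3 arrays each from a drug group, labelled 7-P, a model group and a control group, and each array group was drawn at random from 12 rats of 36 in the study. What 7-P is, its dose, how the model was made, whether the drug group also received the model treatment, and the age of the rats are not given in the sources used here. Whole liver was profiled, so fewer cells of a type and less RNA per cell cannot be told apart. Signals are given as log2 of the deposited signal after quantile normalization between arrays, and differences are on the same log2 scale. Levels of different genes are not set against each other, because each probe set has its own response.

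The 26S proteasome consists of a barrel-shaped core and a regulatory cap. In the core, stacked alpha and beta rings enclose the proteolytic sites carried by a few of the beta subunits, and the alpha rings gate the entry. The cap has a base with a ring of ATPases that unfolds substrates and a lid that removes ubiquitin. The transcription factor NRF1, encoded by Nfe2l1, is known to raise transcription of subunit genes together when proteasome activity is short, and hepatocytes depend on the proteasome for turnover of short-lived enzymes and misfolded proteins.

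One of the 2 measures of RNA quality on the arrays set model and control apart. The ratio of the 3' to the 5' probe set of Gapdh, which increases as RNA is degraded or incompletely copied, was 1.31, 9.20 and 8.71 on drug arrays 1, 2 and 3, against 4.09, 12.7 and 9.77 on model arrays and 1.52, 3.14 and 3.07 on control arrays. The lowest ratio of the model arrays was above the highest of the control arrays, and drug array 1 had the lowest ratio of all 9 arrays. The same ratio for beta-actin was 3.99, 11.5 and 8.63 on drug arrays, against 12.8, 10.7 and 7.31 on model arrays and 4.23, 8.41 and 7.59 on control arrays, and here the groups overlapped, with model array 3 below control arrays 2 and 3. The array labelled control 2 and the array labelled drug 3 had low Xist, the transcript of the inactive X chromosome, with 2.65 on control 2 and 3.05 on drug 3 against at least 8.05 on the other arrays, and Eif2s3y, a Y-linked gene, was high on these arrays, at 6.99 and 7.17, and at most 2.53 on the others. The sex label of the other 7 arrays therefore differs from these transcripts. Results without those arrays are given where they differ. The median signed distance of the 39 genes from their own mean over 9 arrays was 0.32, -0.26 and -0.07 on drug arrays 1, 2 and 3, against -0.04, 0.06 and -0.28 on model arrays and 0.18, 0.08 and 0.12 on control arrays. The number of genes above their own median over the 9 arrays was 29, 6 and 12 on drug arrays, against 12, 17 and 10 on model arrays and 23, 19 and 28 on control arrays. Model array 3 held the lowest value of 16 of the 39 genes, drug array 2 of 8, and drug array 1 the highest value of 10.

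**Figure D1:**
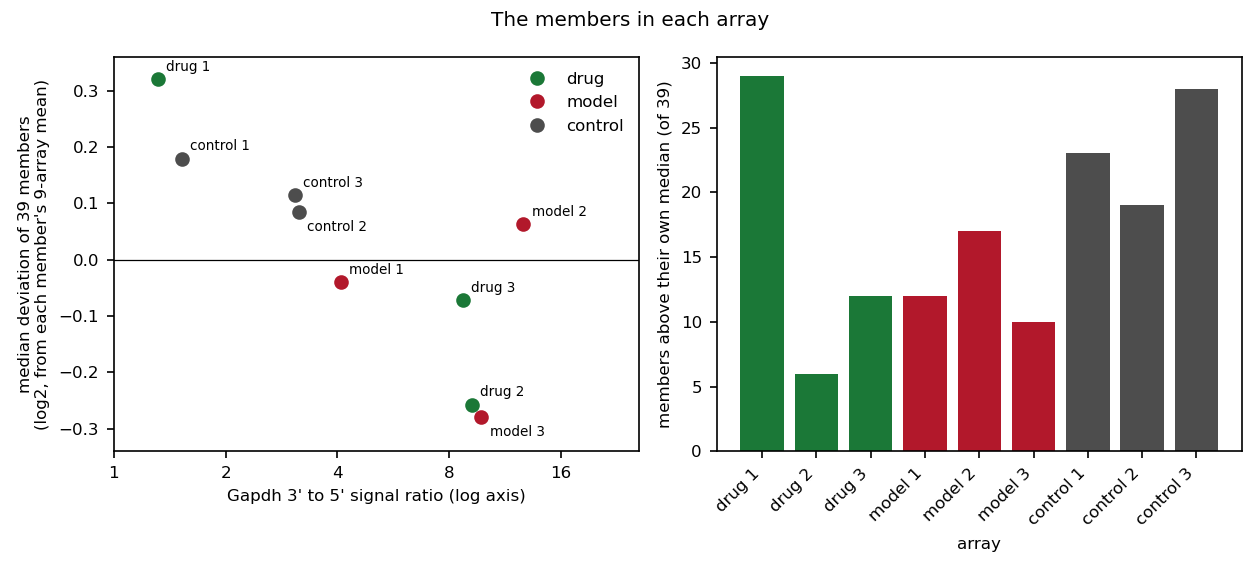
Left, the median log2 distance of the 39 proteasome genes from each gene's mean over 9 arrays, against the Gapdh 3' to 5' signal ratio on a log axis, with a point per array in drug, model or control colour. Right, the number of the 39 genes above their own median on each array. Drug array 1 has the highest median distance, 0.32, the lowest ratio, 1.31, and 29 genes above their median.

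Between model and control livers, most proteasome genes had the lower signal in the model, but none passed the test. Of 39 genes, 25 had a difference below 0, which is 64.1% against 48.9% of all 18625 probe sets tested, and the median difference was -0.20 against 0.02 for all probe sets. Model arrays lay wholly below control arrays for 14 of the 39 genes (35.9%), against 10.9% of all probe sets, and wholly above them for 3 genes, Psma3, Psma4 and Psmd12 (7.69%), against 11.8%. With limma and Benjamini-Hochberg adjustment over all 18625 probe sets, 0 genes passed an adjusted p of 0.05, as did 0% of all probe sets. At an unadjusted p under 0.05 there were 6 of 39 (15.4%), against 12.1% of all probe sets. Of these, 5 were lower in the model, against 5.54% of all probe sets, and 1, Psma4, was higher, against 6.51%. The smallest adjusted p among the genes was 0.384. With 3 rats in a group an exact permutation test of a single gene cannot give a two-sided p below 0.1. The count of 6 was 1 with the log2 Gapdh ratio as a further term, where the median difference was -0.03, 2 without control array 2 and drug array 3, 3 without model array 3, 10 without drug array 1 and 11 with arrays weighted by their quality. The Gapdh ratio set model and control arrays apart, so RNA quality and group cannot be told apart by that term. The shares of all probe sets under these settings are not given, so these counts do not show a change particular to the proteasome genes. The number of genes below 0 depended on how arrays were put on one scale, with 38 without normalization, 34 with median centring and 29 with trimmed mean scaling. Measured from the median of all probe sets it was 26 with quantile normalization and 33 with the others. Those 3 differ from each other only by a constant per array, so the 33 is necessarily the same and is 1 result. The lower side was the larger one in each of these counts.

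**Figure D2:**
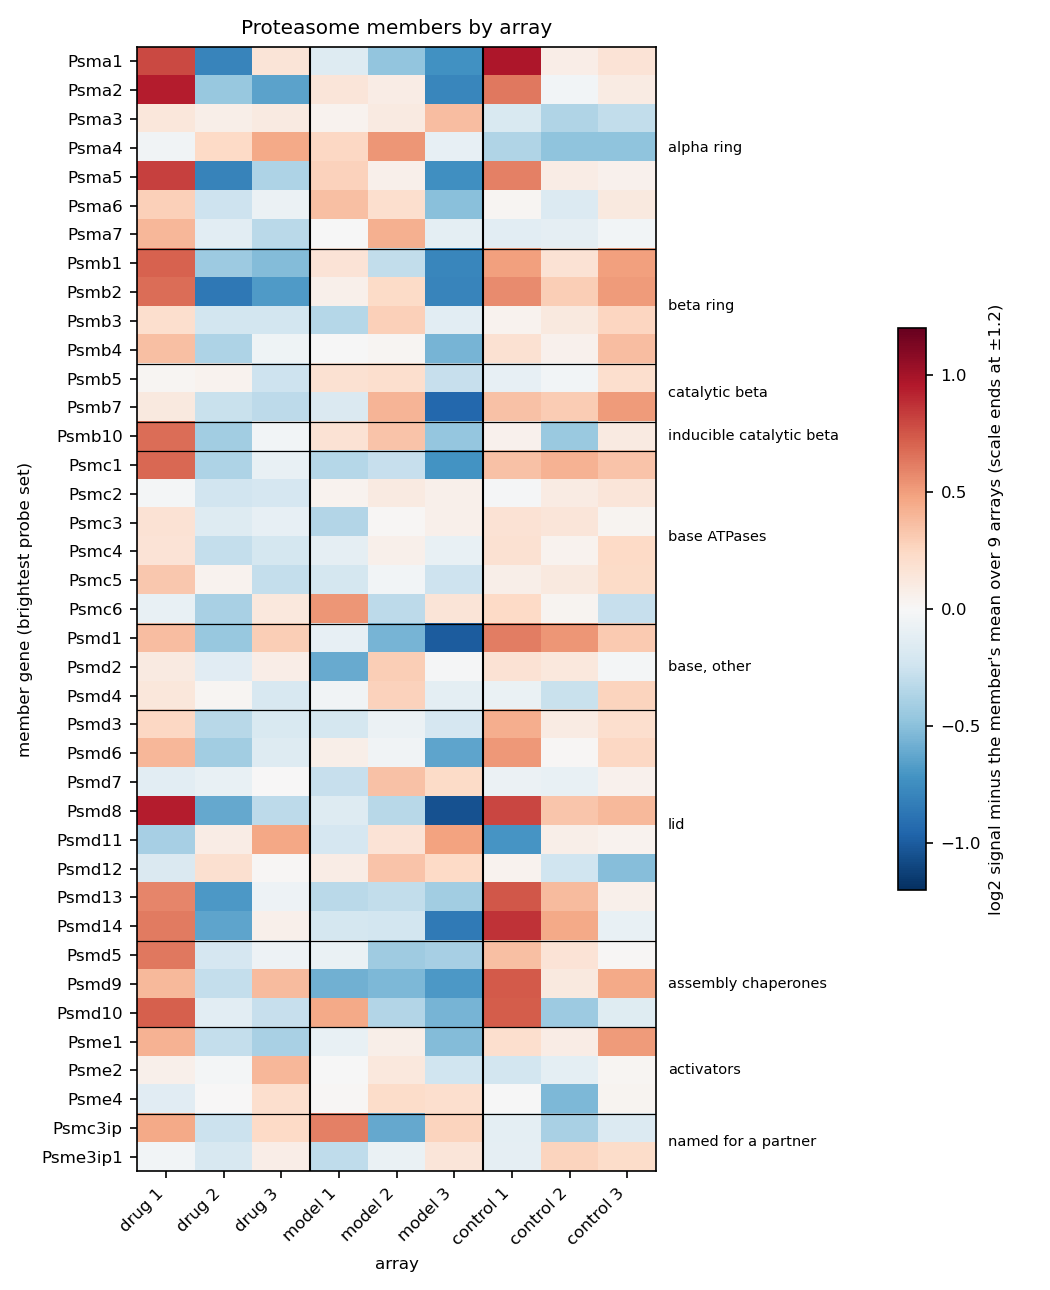
Log2 signal of each proteasome gene on each array, as the distance from that gene's mean over 9 arrays in colour, red above it and blue below it, with drug, model and control arrays 1 to 3 from left to right and genes grouped by their place in the proteasome. Drug array 1 has 29 genes above their own median, and model array 3 holds the lowest value of 16 of the 39 genes.

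The base assembly chaperones, which help to build the ATPase ring and leave before the particle is complete, were lower in the model in 3 of 3 genes, with a median difference of -0.48. Psmd9, the chaperone also called p27, had 7.12, 6.45 and 7.12 on drug arrays 1, 2 and 3, against 6.16, 6.19 and 6.05 on model arrays and 7.47, 6.85 and 7.19 on control arrays. All model values lay below all values of the other groups, while drug and control values overlapped. Model minus control was -1.04 (SE 0.27, limma adjusted p = 0.384, unadjusted p = 0.00308), the smallest unadjusted p of the 39 genes. Psmd5, the chaperone also called S5b, had 7.34, 6.49 and 6.64 on drug arrays, against 6.62, 6.27 and 6.30 on model arrays and 7.06, 6.86 and 6.72 on control arrays. Its model arrays lay below all control arrays and overlapped the drug arrays. Psmd10, also called gankyrin, differed by -0.20 between model and control, with overlapping arrays.

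Among the non-ATPase subunits of the base, which form a scaffold and bind ubiquitin or shuttle factors, Psmd1 differed most between model and control. Psmd1, the large scaffold subunit Rpn2, had 7.00, 6.17 and 6.93 on drug arrays, against 6.53, 6.07 and 5.63 on model arrays and 7.24, 7.16 and 6.94 on control arrays. Model arrays all lay below the control arrays, and drug array 2 lay within the model range. Model minus control was -1.04 (SE 0.31, limma adjusted p = 0.384, unadjusted p = 0.00747). The other non-ATPase subunits of the base differed by less, both with overlapping arrays. Psmd2, the docking subunit for shuttle factors, was at -0.20. Psmd4, a ubiquitin receptor, was at 0.07, and at -0.18 with median centring.

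The promoters of Psmd9 and Psmd1 are shown with that of the catalytic subunit gene Psmb5 because they share a short motif, and that of Psma4 is shown because its signal differed from control in the opposite direction. The windows run from 250 bases before to 50 bases after the annotated start in RefSeq's rat build GRCr8, 5′ to 3′ on the gene's own strand, at chr12:39018215-39018514 on the minus strand for Psmd9, chr9:94157721-94158020 on the plus strand for Psmd1, chr15:32047330-32047629 on the minus strand for Psmb5 and chr8:64236270-64236569 on the plus strand for Psma4. Capitals mark TGACNNNGC, the core of the element through which NRF1 and its relative NRF2 act, on either strand in the first 3 windows, and CCAAT, the box bound by NF-Y, in the Psma4 window.
Psmd9: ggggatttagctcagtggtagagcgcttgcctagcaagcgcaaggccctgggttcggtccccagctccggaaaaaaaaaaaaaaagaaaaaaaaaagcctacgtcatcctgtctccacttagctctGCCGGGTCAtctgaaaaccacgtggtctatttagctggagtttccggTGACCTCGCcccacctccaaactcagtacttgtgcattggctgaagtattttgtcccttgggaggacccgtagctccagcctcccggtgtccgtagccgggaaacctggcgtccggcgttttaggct
Psmd1: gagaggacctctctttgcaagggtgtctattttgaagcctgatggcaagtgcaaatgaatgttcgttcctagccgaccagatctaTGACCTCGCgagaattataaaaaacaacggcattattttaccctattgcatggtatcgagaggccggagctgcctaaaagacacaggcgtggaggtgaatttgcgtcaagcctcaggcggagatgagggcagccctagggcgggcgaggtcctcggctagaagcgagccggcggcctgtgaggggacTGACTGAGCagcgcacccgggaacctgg
Psmb5: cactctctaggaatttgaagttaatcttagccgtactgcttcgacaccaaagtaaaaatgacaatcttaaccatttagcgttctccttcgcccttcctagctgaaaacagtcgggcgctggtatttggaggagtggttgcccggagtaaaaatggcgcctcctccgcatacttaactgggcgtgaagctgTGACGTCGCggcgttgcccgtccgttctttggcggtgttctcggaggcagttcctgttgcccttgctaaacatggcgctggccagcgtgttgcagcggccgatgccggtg
Psma4: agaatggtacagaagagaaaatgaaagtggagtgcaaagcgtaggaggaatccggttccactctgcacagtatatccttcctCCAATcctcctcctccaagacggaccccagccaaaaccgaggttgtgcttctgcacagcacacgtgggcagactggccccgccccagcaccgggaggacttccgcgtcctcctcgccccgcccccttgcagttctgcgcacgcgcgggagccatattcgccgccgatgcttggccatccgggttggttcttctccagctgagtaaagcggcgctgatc
The Psmd9 window holds TGACNNNGC at 124 and 77 bases before the start, on opposite strands, the Psmb5 window at 60 bases before the start, and the Psmd1 window at 165 bases before the start and again past it. RefSeq's promoter table had a window for 35 of the 39 genes and none for Psma7, Psmd6, Psmd12 and Psmd14. On either strand TGACNNNGC was found in 7 of these 35 windows (20.0%), those of Psma3, Psmb2, Psmb5, Psmd1, Psmd3, Psmd9 and Psme4, against 12.1% of all 33469 windows of the same length. CCAAT was in 18 of 35 (51.4%) against 37.5%, and GGGCGG, the GC box bound by Sp1, in 24 of 35 (68.6%) against 33.1%. Matches of different motifs overlapped in 1 member window, that of Psmb2. The 7 genes with TGACNNNGC include some with model signals above control and some below, as the values of Psma3 and Psmd9 show. A match describes the letters of the window and is neither a binding site nor a cause.

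In the ATPase ring of the base, which threads substrates into the core, 5 of 6 genes were lower in the model, with a median difference of -0.21. Psmc1, the ATPase Rpt2, had 8.05, 6.99 and 7.27 on drug arrays, against 7.02, 7.08 and 6.64 on model arrays and 7.71, 7.77 and 7.70 on control arrays. The control arrays lay close together and above the model arrays, while drug array 1 was above every control array and drug arrays 2 and 3 below. Model minus control was -0.82 (SE 0.29, limma adjusted p = 0.384, unadjusted p = 0.0179). The other ATPases, Psmc2 to Psmc6, ranged from -0.30 for Psmc5 to 0.12 for Psmc6, whose sign turned with median centring. Of these, the model arrays of Psmc5 lay below the control arrays, and the other groups overlapped.

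The lid, which recognises and removes ubiquitin chains, had 5 of 8 genes lower in the model, with a median difference of -0.43. Psmd8, the lid subunit Rpn12, had 8.69, 7.14 and 7.43 on drug arrays, against 7.60, 7.42 and 6.71 on model arrays and 8.55, 8.08 and 8.14 on control arrays. Its model arrays lay below its control arrays, and drug array 1 lay above all others. Model minus control was -1.02 (SE 0.40, limma adjusted p = 0.398, unadjusted p = 0.0306). Psmd14, the deubiquitinase Rpn11 that cuts the chain from the substrate, had 7.61, 6.36 and 7.05 on drug arrays, against 6.78, 6.76 and 6.14 on model arrays and 7.86, 7.44 and 6.90 on control arrays. The highest model array lay just below the lowest control array. Model minus control was -0.84 (SE 0.37, limma adjusted p = 0.414, unadjusted p = 0.0482). Psmd13 and Psmd3 also had model arrays below control arrays, with differences of -0.74 and -0.40. Psmd12, the subunit Rpn5, lay the other way, at 0.46, with every model array above every control array, and without normalization at -0.09. Psmd6 differed by -0.46, Psmd11 by 0.35 and Psmd7 by 0.14, with overlapping arrays, and with median centring Psmd11 was at -0.05 and Psmd7 at -0.21.

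In the alpha ring, which gates the core, the 7 genes lay on both sides of 0, with 4 higher and 3 lower in the model and a median of 0.03; with trimmed mean scaling or median centring 5 of 7 were lower, and without normalization 6, as Psma6 and Psma7 turned sign. Psma4 had 8.04, 8.32 and 8.53 on drug arrays, against 8.33, 8.61 and 7.98 on model arrays and 7.72, 7.60 and 7.60 on control arrays. All drug and model arrays lay above all control arrays. Model minus control was 0.67 (SE 0.23, limma adjusted p = 0.384, unadjusted p = 0.0169). Psma3 had 6.67, 6.61 and 6.64 on drug arrays, against 6.58, 6.64 and 6.91 on model arrays and 6.36, 6.17 and 6.24 on control arrays, and likewise its drug and model arrays lay above its control arrays. Its model minus control was 0.45 (limma adjusted p = 0.421), and without normalization -0.01. Psma1 lay the other way, with 8.50, 6.92 and 7.86 on drug arrays, against 7.55, 7.23 and 6.98 on model arrays and 8.68, 7.79 and 7.88 on control arrays. All its model arrays were below its control arrays, at a difference of -0.86 (SE 0.40, limma adjusted p = 0.42). Psma2, Psma5, Psma6 and Psma7 ranged from -0.42 to 0.19, with overlapping arrays.

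The non-catalytic beta subunits, Psmb1 to Psmb4, which complete the beta rings, were lower in the model in 4 of 4 genes, with a median difference of -0.50 and a range from -0.69 for Psmb1 to -0.20 for Psmb3. The model arrays of Psmb1, Psmb2 and Psmb4 lay below their control arrays. Of the catalytic subunits, Psmb7 was lower in the model, while Psmb5 and Psmb10 differed from control by less than their standard errors. Psmb5 and Psmb7 were both lower without normalization, with median centring and with trimmed mean scaling. Psmb5, which carries the chymotrypsin-like site, had 9.20, 9.22 and 8.92 on drug arrays, against 9.36, 9.38 and 8.90 on model arrays and 9.08, 9.14 and 9.38 on control arrays. The 3 groups overlapped, and model minus control was 0.01 (SE 0.21, limma adjusted p = 0.987), with a sign that turned under other scalings of the arrays. Psmb7, which carries the trypsin-like site, had 8.39, 8.02 and 7.97 on drug arrays, against 8.11, 8.69 and 7.34 on model arrays and 8.63, 8.59 and 8.79 on control arrays. Model array 2 lay within the control range and the other model arrays below it, at a difference of -0.62 (SE 0.32, limma adjusted p = 0.442). Psmb10, which replaces Psmb7 in the immunoproteasome, had 8.36, 7.28 and 7.67 on drug arrays, against 7.87, 8.04 and 7.24 on model arrays and 7.75, 7.25 and 7.80 on control arrays. All 3 groups overlapped, and the difference was 0.11 (SE 0.33, limma adjusted p = 0.892), again with a sign that turned under other scalings. No probe set is named for Psmb6 alone, so the third constitutive catalytic subunit is not described.

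The activators cap the core in place of the ATPase-bearing cap. Psme1, the PA28 alpha subunit, had 10.16, 9.46 and 9.35 on drug arrays, against 9.66, 9.81 and 9.22 on model arrays and 9.95, 9.83 and 10.25 on control arrays. Its model arrays all lay below its control arrays, at a difference of -0.44 (SE 0.27, limma adjusted p = 0.494). Psme2, the PA28 beta subunit that forms a ring with Psme1, had 8.89, 8.80 and 9.22 on drug arrays, against 8.83, 8.95 and 8.59 on model arrays and 8.61, 8.71 and 8.85 on control arrays. These overlapped, at 0.07 (limma adjusted p = 0.899), and the sign turned under other scalings. Psme4, or PA200, had 7.68, 7.82 and 8.02 on drug arrays, against 7.82, 8.04 and 8.02 on model arrays and 7.81, 7.27 and 7.85 on control arrays. Its groups overlapped as well, at 0.31 (SE 0.23, limma adjusted p = 0.56), and without normalization the difference was -0.29.

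**Figure D3:**
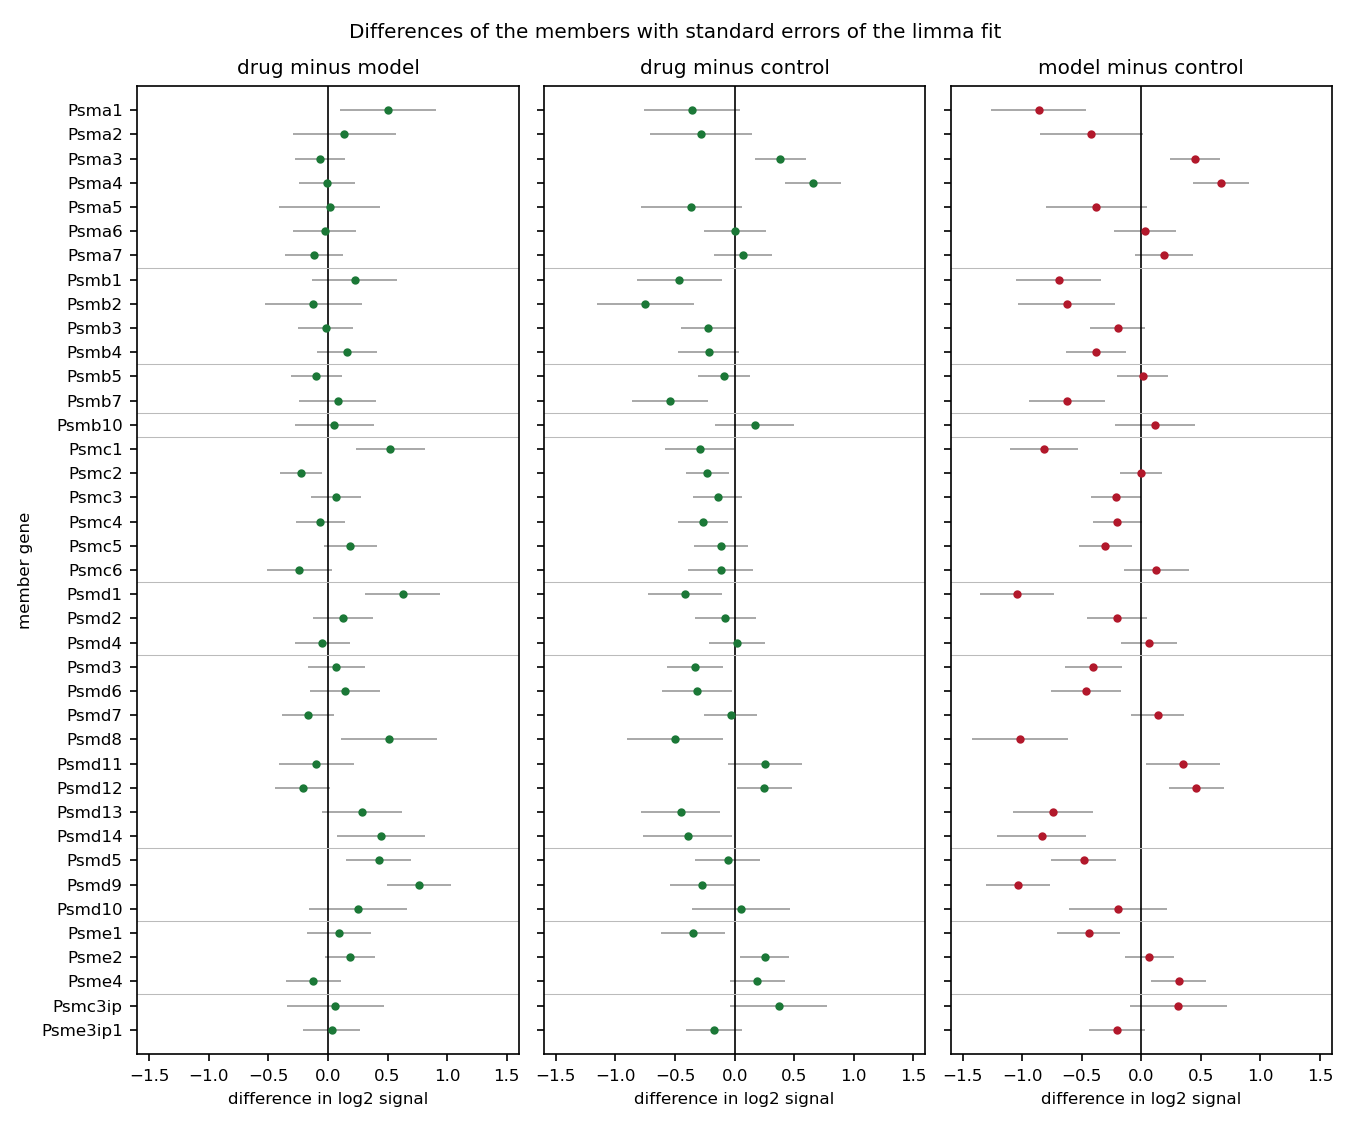
Log2 difference of each proteasome gene with its standard error for drug minus model, drug minus control and model minus control, in separate panels with genes grouped by their place in the proteasome. In model minus control the points run from -1.04 for Psmd1 to 0.67 for Psma4, and 25 of 39 lie below 0.

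The next comparison asked how livers of the drug group differed from model livers. No proteasome gene and 0% of probe sets passed an adjusted p of 0.05 in limma, and the adjusted p was 0.998 for every proteasome gene. Of 39 genes, 24 were higher in the drug group and 15 lower, that is 38.5% below 0 against 52.1% of all probe sets, with a median difference of 0.07 against -0.02. At an unadjusted p under 0.05 there was 1 gene, Psmd9, against 3.28% of all probe sets. It was on the higher side, as were 1.47% of all probe sets, and 0 genes were on the lower side, against 1.8%. The count was 4 without drug array 2, 2 without model array 1 and 0 without drug array 3, with the shares of all probe sets in these settings not given. The sign of the median rests on single arrays and settings, since it was -0.08 without drug array 1, -0.03 without model array 3 and -0.05 with the Gapdh term. Other scalings left 4, 5 or 14 of the 39 genes below 0, without normalization, with median centring and with trimmed mean scaling in that order. This comparison and model against control share the model arrays, so a gene low on those arrays differs from both other groups at once.

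For Psmd9, whose values are given above, drug minus model was 0.76 (SE 0.27, limma adjusted p = 0.998, unadjusted p = 0.0172), and the 3 drug arrays lay above the 3 model arrays, as they did for 3.35% of all probe sets. A dimmer probe set of Psmd9 that also passed the filter, with a mean of 4.235, did not share this difference. It gave a drug minus model difference of -0.02, with overlapping arrays. The next in order of p were Psmd1 at 0.63 (SE 0.31), Psmc1 at 0.52 (SE 0.29), Psmd5 at 0.43 (SE 0.27) and Psmd8 at 0.51 (SE 0.40). In each of these drug array 2 lay within the model range and drug array 1 above it. Psmc2, the ATPase Rpt1, lay the other way, with 9.11, 8.90 and 8.93 on drug arrays, against 9.17, 9.24 and 9.19 on model arrays and 9.12, 9.23 and 9.27 on control arrays. The highest drug array was below the lowest array of both other groups, at a drug minus model difference of -0.23 (SE 0.18), and such drug arrays below model arrays occurred in 4.7% of all probe sets. By place in the proteasome, the median drug minus model difference was 0.43 for the base assembly chaperones, 0.12 for the base non-ATPases and 0.11 for the lid, and -0.01 for the alpha ring and for the catalytic beta subunits. The last pair turned sign under the other scalings, to 0.18, 0.13 and 0.05 for the alpha ring and 0.15, 0.11 and 0.03 for the catalytic beta subunits, without normalization, with median centring and with trimmed mean scaling in that order.

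**Figure D4:**
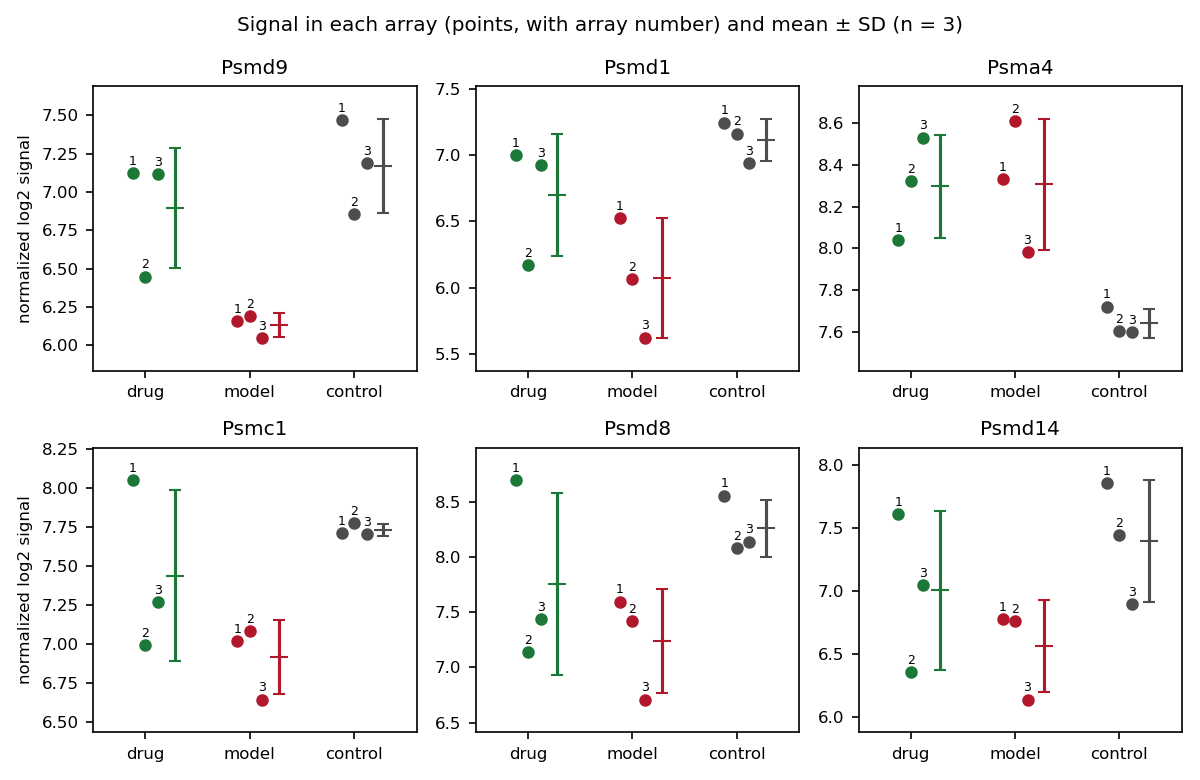
Log2 signal on each array for the 6 proteasome genes with the smallest unadjusted p in model against control, with drug, model and control groups from left to right in each panel, a point per array and the group mean with its SD (n = 3). Psmd9, Psmd1, Psmc1, Psmd8 and Psmd14 have their model arrays below their control arrays, and Psma4 has them above.

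Drug livers were then set against control livers, a comparison that shares the control arrays with model against control. Again 0 of 39 genes, and 0% of all probe sets, passed an adjusted p of 0.05 in limma. The smallest adjusted p of a proteasome gene was 0.683. Of the 39, 27 were lower in the drug group (69.2%) against 51.5% of all probe sets, and the median was -0.17 against -0.02. By their brightest probe sets, all genes were lower in 3 classes, also under the other 3 scalings. These were the base ATPases, 6 of 6 with a median of -0.19, and the non-catalytic beta subunits, 4 of 4 with a median of -0.34. The last were the catalytic beta subunits Psmb5 and Psmb7, 2 of 2 with a median of -0.32. Dimmer probe sets that passed the filter lay the other way, at 0.15 and 0.06 for Psmc6 and 2.64 for Psmb5. The lid had 6 of 8 lower and a median of -0.32. At an unadjusted p under 0.05 there was 1 gene, Psma4, against 7.22% of all probe sets. It was on the higher side, as were 4.19% of all probe sets, and 0 genes were on the lower side, against 3.03%. Without drug array 1 there were 9, without model array 3 there were 2, and without control array 2, control array 3 or drug array 3 there were 0. Here too the shares of all probe sets without these arrays are not given, so a change particular to the proteasome genes is not shown. With the Gapdh term the median was -0.06. Measured from the median of all probe sets, 27 of 39 genes were lower with quantile normalization and 30 with the other 3 scalings. Those 3 differ from each other only by a constant per array, so the 30 is 1 result.

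Psma4 was higher in the drug group by 0.66 (SE 0.23, limma adjusted p = 0.683, unadjusted p = 0.0182), and it was close to its model difference of 0.67. Psma3 was 0.38 above control (SE 0.21, limma adjusted p = 0.706), and these were the 2 genes of 39 with drug arrays wholly above control arrays (5.13%), against 6.05% of all probe sets. Drug arrays lay wholly below control arrays in 2 genes, Psmb7 and Psmc2 (5.13%), against 6.49%. Psmb7 differed by -0.54 (SE 0.32, limma adjusted p = 0.713). Psmb2 had 9.25, 7.73 and 7.90 on drug arrays, against 8.65, 8.81 and 7.79 on model arrays and 9.15, 8.88 and 9.10 on control arrays, so that drug array 1 lay above every control array and the other drug arrays far below. Drug minus control for Psmb2 was -0.75 (SE 0.41, limma adjusted p = 0.703). Psmd3 had 6.97, 6.39 and 6.54 on drug arrays, against 6.51, 6.65 and 6.52 on model arrays and 7.15, 6.82 and 6.92 on control arrays, a drug minus control difference of -0.33 (limma adjusted p = 0.74). Psmd13 had 6.71, 5.43 and 6.07 on drug arrays, against 5.80, 5.83 and 5.71 on model arrays and 6.87, 6.51 and 6.19 on control arrays, a drug minus control difference of -0.45 (limma adjusted p = 0.746). In both, drug array 1 lay within the control range and the other drug arrays below it.

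Over all 3 groups at once, the moderated F test of the same fit passed 0 of 39 genes at an adjusted p of 0.05, and 0% of all probe sets. At an unadjusted p under 0.05 there were 4, Psma4, Psmc1, Psmd1 and Psmd9 (10.3%), against 7.45% of all probe sets.

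Some proteasome genes followed the Gapdh ratio inside the groups, where no group difference enters. With limma, 6 of 39 genes, Psma1, Psma2, Psma5, Psmb1, Psmd8 and Psmd10, fell with an increasing log2 ratio at an adjusted p under 0.05 (15.4%), against 6.65% of all probe sets, and 0 rose, against 7.66%. Model minus control with the Gapdh term was -0.81 for Psmd9, -0.68 for Psmd1, 0.50 for Psma4, -0.41 for Psmc1, -0.28 for Psmd14 and -0.24 for Psmd8. All 6 kept the sign they had without it, and all were smaller in size. Because the ratio set model and control arrays apart, the term can take up part of a group difference. RNA quality and group cannot be told apart by it.

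Where a gene had several probe sets they did not always give the same answer. Of the 39 genes, 9 had several probe sets, and 7 of these had more than 1 that passed the filter. In 4 of the 7 the model minus control differences had 1 sign. The 3 probe sets of Psmd14 gave -0.84, -2.63 and -1.24, but the model means of the dimmer 2 were 2.93 and 2.88, close to the filter of 2.818, so that the sizes of their differences are not exact. Those of Psmd9 gave -1.04 and -0.24, and those of Psmd11 gave 0.35 and 0.16. The brightest probe set of Psmb5 gave 0.01, with a sign that turned under other scalings, and the second gave 2.55. In drug minus control they had opposite signs, at -0.09 and 2.64. The second has a mean of 2.86, just above the filter, and a control level of 1.13, below it. The sizes of its differences are therefore not exact. In Psmc6, Psmd7 and Psme4 the signs differed, with 0.12, -0.20 and 0.30 for Psmc6, 0.14 and -0.39 for Psmd7, and 0.31, 0.23 and -0.67 for Psme4. The values of each gene given above are those of its brightest probe set.

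**Figure D5:**
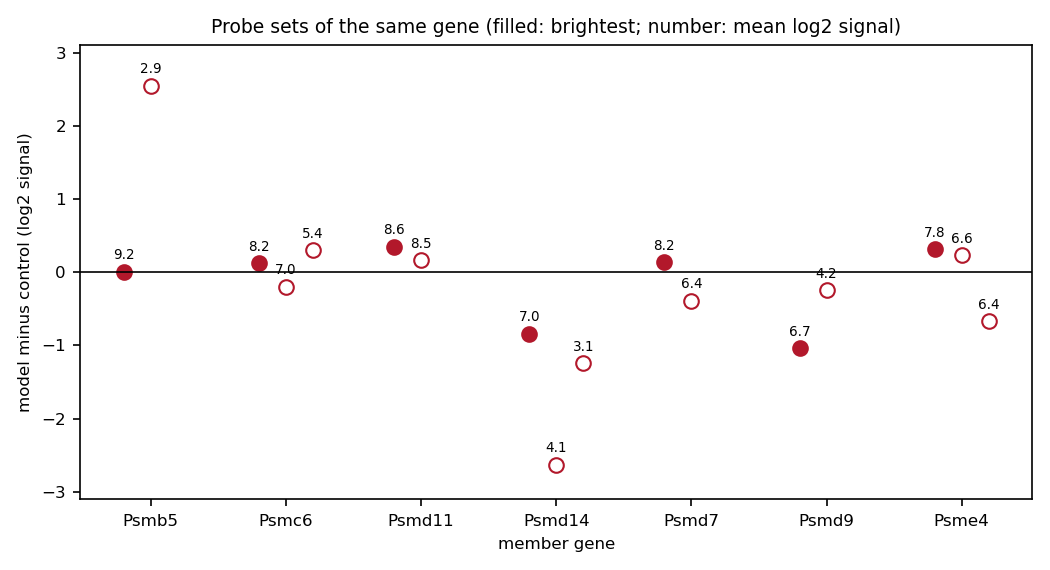
Model minus control log2 difference for each probe set that passed the filter, in the 7 proteasome genes with more than 1, with a filled point for the brightest probe set and the mean log2 signal written at each point. The probe sets of Psmd14 all lie below 0, and those of Psmc6, Psmd7 and Psme4 lie on both sides of it.

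The rest of the ubiquitin-proteasome pathway was read from 4 lists, with differences in the order drug minus model, drug minus control and model minus control. For proteasome assembly factors and regulators outside the naming rule, 14 of 15 genes were measured and the medians were -0.08, -0.29 and -0.27. They were 0.06, -0.78 and -0.91 without normalization and 0.02, -0.49 and -0.58 with median centring, so the first turned sign. Psmg3, a chaperone of alpha ring assembly, had an unadjusted p under 0.05 in both comparisons with control, at -0.73 and -0.74, and Usp14, a deubiquitinase of the cap, differed by 0.52 between model and control. These were 0, 1 and 2 of the 14 genes, against 3.28%, 7.22% and 12.1% of all probe sets. For ubiquitin activation, conjugation and shuttle factors, 14 of 20 genes were measured. Of them, 13 were lower in the drug group and 12 lower in the model than in control, with medians of -0.45 and -0.31. Of all probe sets, 51.5% and 48.9% were lower. Under the other scalings 13 or 14 genes were lower in the drug group and 10 to 14 in the model. Without normalization the medians of all probe sets were themselves -0.36 and -0.40. Uba1, the main ubiquitin-activating enzyme, differed by -0.75 in drug and -0.66 in model against control, and Ube2r2, a conjugating enzyme that works with cullin ligases, by -1.001 and -1.23. Sqstm1, the p62 adaptor that links ubiquitin to autophagy, was the 1 gene of that list under an unadjusted p of 0.05 in drug against model, at 0.91, which is 1 of 14 against 3.28% of all probe sets. In drug against control and in model against control there were 3 of 14 each, against 7.22% and 12.1%. None of these passed an adjusted p of 0.05, as 0 genes of the 4 lists did.

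For NRF1 and the machinery that extracts and processes its precursor, 13 of 14 genes passed the filter, with medians of -0.15, 0.10 and 0.25. In limma 0 of 13 genes had an unadjusted p under 0.05 in each comparison, against 3.28%, 7.22% and 12.1% of all probe sets. Without normalization the medians against control were -0.32 in the drug group and -0.28 in the model. The 2 genes with the smallest p were Nfe2l2, which encodes NRF2, at 0.51 and the glycosyltransferase gene Ogt at 0.29 in drug minus model, Ogt at 0.59 and Sel1l at -0.63 in drug minus control, and Nploc4 at -0.54 and Syvn1 at 0.68 in model minus control. Sel1l and Syvn1 encode parts of a ligase complex of the endoplasmic reticulum, and Nploc4 a cofactor of the extracting ATPase. Nfe2l1 itself had 5.996, 5.97 and 5.70 on drug arrays, against 6.12, 6.11 and 5.95 on model arrays and 6.09, 5.18 and 5.91 on control arrays, with overlapping groups. For the immunoproteasome and peptide loading, 9 of 10 genes were measured, with medians of 0.11, 0.08 and -0.05. Against control they were -0.39 in the drug group and -0.63 in the model without normalization, and -0.10 and -0.30 with median centring, so the sign of the drug group's median turned. In limma 0 of 9 genes had an unadjusted p under 0.05 in each comparison, against the same shares of all probe sets. Its values furthest toward the threshold in model minus control were -0.57 for the peptide transporter gene Tap1 and 0.69 for the transcription factor gene Irf1, which was at -0.69 in drug minus model. Psmb8, the immune counterpart of Psmb5, had 9.62, 9.01 and 9.20 on drug arrays, against 8.88, 9.38 and 8.91 on model arrays and 9.35, 8.78 and 9.20 on control arrays. Psmb9 had 8.80, 8.78 and 9.68 on drug arrays, against 8.96, 9.40 and 8.65 on model arrays and 8.82, 8.32 and 9.24 on control arrays. Both overlapped in all 3 groups. Sem1, a small lid protein outside the naming rule, differed by -0.39 between model and control, with 8.57, 7.63 and 8.31 on drug arrays, against 8.73, 7.88 and 7.40 on model arrays and 8.45, 8.44 and 8.29 on control arrays.

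Markers of liver cell types were measured beside these values, and 0 of them passed an adjusted p of 0.05 in limma in any comparison. At an unadjusted p under 0.05 in drug against model, Ms4a1 (1 of 1 B cell marker) and Lyve1 and Gpr182 (2 of 5 endothelial) were lower, against 3.28% of all probe sets. In drug against control Cd163 (1 of 8 macrophage) was higher, and Gpr182 (1 of 5) and Alas2 (1 of 3 erythroid) lower, against 7.22%. In model against control Cd163 and Adgre1 (2 of 8) and S100a8, S100a9 and Csf3r (3 of 3 neutrophil) were higher, against 12.1%. No other marker was under this threshold. The summed linear signal of 7 measured hepatocyte markers was 31220 to 36550 on drug arrays, against 27550 to 35150 on model arrays and 34360 to 34950 on control arrays, with overlapping ranges. Macrophage markers summed to 879 to 1706 on drug arrays, against 969 to 2265 on model arrays and 572 to 1190 on control arrays, and these ranges overlapped too. Endothelial markers summed to 444 to 513 on drug arrays, against 689 to 1019 on model arrays and 595 to 667 on control arrays, with no overlap between the groups. Of these, Gpr182 at -0.38 and Kdr at -0.17 were lower in model than in control, and 3 were higher. Neutrophil markers summed to 127.5 to 1461 on drug arrays, 432 to 2056 on model arrays and 109 to 317 on control arrays. Ms4a1 had 3.37 to 8.95, 12.9 to 23.5 and 7.10 to 8.41 in the same order. The sums of T cell, stellate cell, bile duct and erythroid markers overlapped.

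In drug minus model the median difference was 0.01 for 7 hepatocyte markers, -0.18 for 8 macrophage markers, -1.90 for 3 neutrophil markers, -0.44 for 6 T cell markers and -0.59 for 5 endothelial markers. In drug minus control these medians were -0.12, 0.60, 0.93, 0.10 and -0.22 in the same order. In model minus control they were -0.18, 0.80, 2.59, 0.58 and 0.45. Without normalization the model minus control medians were -0.64, 0.20, 2.11, 0.25 and 0.05, and T cell markers were higher in the model in 3 of 6 genes, against 6 of 6 with quantile normalization. Stellate cell markers differed by medians of -0.16, -0.54 and -0.28 in 4 genes for drug minus model, drug minus control and model minus control, bile duct markers by 0.10, -0.14 and -0.24 in 2, erythroid markers by -0.22, -1.22 and -0.93 in 3, and the 1 measured B cell gene, Ms4a1, by -1.36, -0.33 and 1.03. The part of these cells in the proteasome differences was not tested.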

How the data were processed

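Signal intensity values of 9 arrays were used as deposited by the authors, made with GCOS 1.2 per the submitters' processing notes; further steps are not given in the sources used here, and the arrays had not been brought to one scale. Arrays carry no read depth, so their number limits the precision. The 57 control probe sets were left out, and signals were turned to log2, quantile normalized and filtered at the 40th percentile of mean log2 signal (2.818), leaving 18625 probe sets. One limma 3.58.1 fit in R 4.3.3 (trend on intensity) over 3 groups gave two-sided p-values, Benjamini-Hochberg adjusted over all of these. The step was tested on simulated data. Genes were named from probe sets with 1 symbol (20826, with 436 of several and 9780 unnamed); all 39 matched RefSeq by Entrez ID. Values per array are given for the 6 genes with the smallest unadjusted p in each comparison, the catalytic subunits and the activators. They are also given for Psma1, which this choice did not include, and outside the 39 genes for Psmb8, Psmb9, Nfe2l1 and Sem1. Members and lists were chosen with earlier results of these data known. Psmb6 and Psme3 lack a probe set of their own. Alternatives covered scaling, filter, probe set choice, array weights, a replicate block, a Gapdh term and left-out arrays.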

Additional observations from a re-analysis of the deposited data

How the results depend on the processing

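The counts of proteasome genes past an adjusted p of 0.05 were 0 in all 3 comparisons and in the F test under every alternative run. The median difference moved by more than the spread between replicates without normalization, to -0.68 in drug against control and -0.89 in model against control, where the medians of all probe sets were -0.36 and -0.40, and with median centring, to -0.39 and -0.56, where those of all probe sets were -0.07 in both. With each array left out in turn it ran from -0.08 to 0.19 in drug against model, from -0.29 to -0.05 in drug against control and from -0.37 to -0.17 in model against control. In model against control, 14 genes had model arrays wholly below control arrays, with 11 without normalization, 19 with trimmed mean scaling and 22 with median centring; model arrays lay wholly above in 3 genes, in 0 without normalization and in 1 with median centring. With each array left out these counts ran from 14 to 17 and from 3 to 6, the second count reaching 6 without model array 1 or model array 3. The shares of all probe sets under these settings are not given beside the counts. The counts therefore show how they depend on the setting, and not a change particular to the proteasome genes. Small differences between model and control turned sign and the cause was not tested. Without normalization Psmb5 was -0.81, Psmb10 -0.46, Psme2 -0.69 and Psme4 -0.29. With median centring Psmb5 was -0.48, Psmb10 -0.13 and Psme2 -0.36, and with trimmed mean scaling Psmb5 was -0.25 and Psme2 -0.13, where all probe sets had a median of 0.16. Averaging the probe sets of a gene gave -0.041 for Psme4, the Gapdh term -0.012 for Psme2, and a term for control 2 and drug 3 -0.052 for Psmb5. Without control 2 and drug 3, Psmb5 was -0.019 and Psmb10 -0.059, and without control 1 and drug 1 Psmb5 was -0.052. With each array left out Psmb5 ran from -0.072 to 0.17, Psmb10 from -0.061 to 0.36 and Psme2 from -0.013 to 0.17. Replicate numbers are not said to pair the rats, and these data cannot settle it. Arrays of the same number correlated in their deviations by -0.01 to 0.48, and 3 of 9 arrays correlated best with their own number. The correlation was highest for number 1 in each comparison, at 0.39 in drug against model, 0.48 in drug against control and 0.20 in model against control. Array 1 also had the lowest Gapdh ratio of each group. A replicate block left 0 genes past the adjusted threshold, and 2 in drug against model and 9 in model against control at an unadjusted p under 0.05. The shares of all probe sets with this block are not given either. Limits of signal over background apply to Psmc3ip, the dimmest gene.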

Other observations

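The genes outside the proteasome whose log2 signal followed that of the catalytic subunit gene Psmb5 most closely over the 9 arrays, among 10393 genes, were Napsa with a Pearson correlation of 0.91, Elmo1 with 0.906, Rras with 0.903, and Gask1b and Snrpb2 with 0.893 each. The 9 points are single rats of 3 groups and share the arrays' differences in RNA quality.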
